A study of Mus musculus with 7 samples.

Results

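The collagen genes are the symbols that consist of Col, a type number, the letter a and a chain number. The deposited tables of mouse salivary gland RNA held 44 of them among 23366 genes. Of these members, 42 passed the filter on low counts and were tested, and Col2a1 and Col22a1 were not. Collagens are secreted or membrane-bound proteins whose chains wind around each other into a stiff helix. Fibrillar types build the fibres of connective tissue, type IV forms the sheet-like network of basement membranes, and other types coat fibrils, anchor epithelia or span cell membranes. In salivary glands, stromal fibroblasts lay down most fibrillar collagen, while type IV collagen lies around acini, ducts, blood vessels, nerves and fat cells.

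The 7 libraries comprised 2 of parotid gland and 2 of submandibular gland, each taken on postnatal day 18 (P18), and 3 of parotid gland of adult mice at 12 weeks, with no allele, treatment or other agent named in the labels. Strain, sex and number of animals were not given in the sources used here. A label described the samples as whole tissue, whereas the extraction text spoke of isolated epithelial cells. The labels do not say whether replicates are separate animals, so p-values speak only of the spread among these libraries, which may be technical.

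Total counts ran from 12844534 to 28856127 per library, and levels are given as normalised CPM, counts put on a common library size with edgeR's TMM composition factors. These factors ran from 0.640 to 1.72 and did not overlap between the groups. Within P18 parotid, replicate 2 stood apart. Its summed fat cell markers reached 9237 normalised CPM against 2699 in replicate 1, its skeletal muscle markers 6159 against 1269, its endothelial markers 812 against 387 and its epithelial markers 217 against 552. Adult replicate 1 was the farthest from the other adult libraries, with a chi-square per degree of freedom of 67.6 and 61.7 against 46.7 between replicates 2 and 3. The part of fat, muscle and vessel RNA in the collagen values was not tested. The defining epithelial markers, keratins 8 and 18, Epcam and Cdh1 among them, had counts in all 7 libraries.

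P18 parotid held the most collagen RNA and adult parotid the least. Collagens took 1.38% and 1.84% of all counts in the P18 parotid libraries, which is 1.61% ± 0.323 (SD, n = 2). In P18 submandibular gland they took 0.478% and 0.458%, or 0.468% ± 0.0145 (SD, n = 2). In adult parotid they took 0.198%, 0.153% and 0.175%, or 0.175% ± 0.0223 (SD, n = 3). The 3 groups did not overlap. These shares of a library also move when other genes take more of it. Without the 50 most abundant genes, P18 parotid had 1.07% ± 0.0615, submandibular gland 0.571% ± 0.0411 and adult parotid 0.367% ± 0.0332, the same order with smaller gaps. In bulk RNA, fewer collagen-making cells and less collagen RNA per cell cannot be told apart.

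The order held after scaling as well. Summed over the family, P18 parotid had 8055 and 11878 normalised CPM, submandibular gland 4344 and 4412, and adult parotid 3094, 2143 and 2440.2. Summed TPM (a measure per gene length with the same total in each library) were 5449 ± 1190 (SD, n = 2), 1237 ± 28.2 (n = 2) and 375 ± 37.1 (n = 3). P18 parotid replicate 2, the library with the most fat, muscle and endothelial RNA, was also the highest in collagen on each of these scales.

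**Figure D1:**
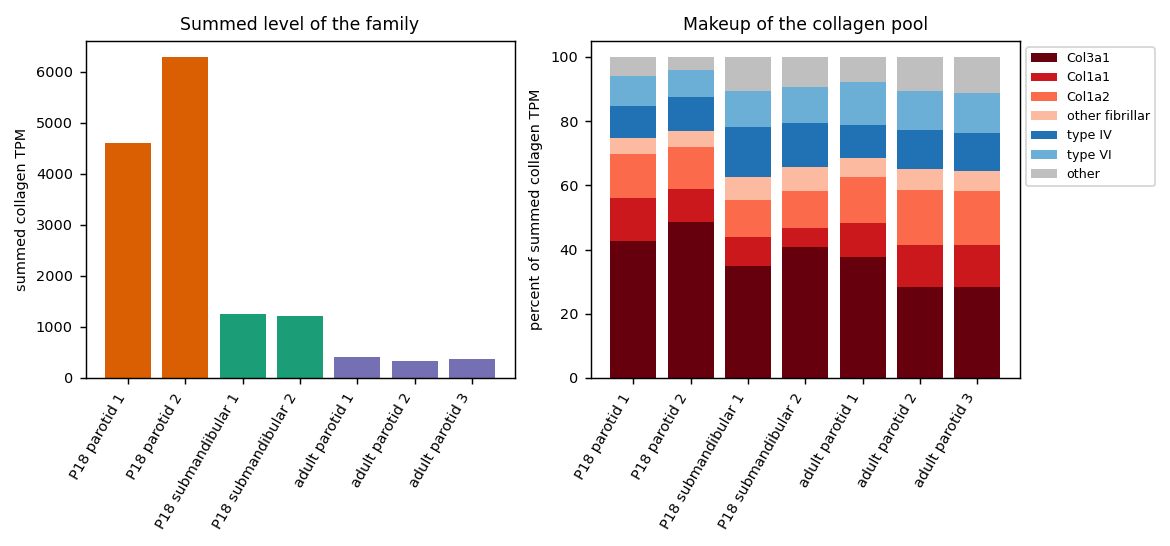
The left panel plots summed collagen TPM per library, and the right panel the percent of that sum held by Col3a1, Col1a1, Col1a2, other fibrillar chains, type IV, type VI and all other collagens. Bars are single libraries. P18 parotid stands highest, at 4608 and 6290.5 TPM, and its fibrillar share is the largest, at 74.8% and 76.8%.

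The makeup of the family was alike in outline in all libraries. Fibrillar chains held 75.8% ± 1.42 of summed collagen TPM in P18 parotid, 64.1% ± 2.13 in P18 submandibular gland and 66.0% ± 2.23 in adult parotid. Type IV chains held 10.3% ± 0.716, 14.7% ± 1.10 and 11.4% ± 1.06 in the same order, and type VI chains 8.92% ± 0.722, 11.2% ± 0.322 and 12.6% ± 0.629. These shares are independent of how a library is scaled, and they show a more fibrillar pool in P18 parotid than in the other groups, without overlap. Col3a1, the chain of type III collagen, which forms thin fibrils in distensible tissue, was the leading member in every library, with 28.2% to 48.7% of collagen TPM.

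The per-length order of the leading members was much the same across groups. By mean TPM over the 7 libraries, the 10 most abundant collagens were Col3a1, Col1a2, Col1a1, Col4a1, Col4a2, Col6a1, Col6a2, Col5a2, Col6a3 and Col15a1. Col1a1 and Col1a2, which encode the chains of type I collagen, the main fibre protein of connective tissue, lay close together, at 616 and 633 TPM in P18 parotid replicate 1 and 42.9 and 59.6 TPM in adult replicate 1. Their TPM ratio, Col1a1 to Col1a2, ran from 0.537 to 0.972 over the 7 libraries, and the groups overlapped. Col4a1 and Col4a2, which encode the chains of the common type IV collagen of basement membranes, kept a TPM ratio of 1.54 to 1.83, again with overlap between groups. At the low end, Col8a2, Col24a1, Col9a1 and Col22a1 did not exceed 1.54 normalised CPM in any library, and Col2a1 and Col19a1 did not exceed 1.75.

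**Figure D2:**
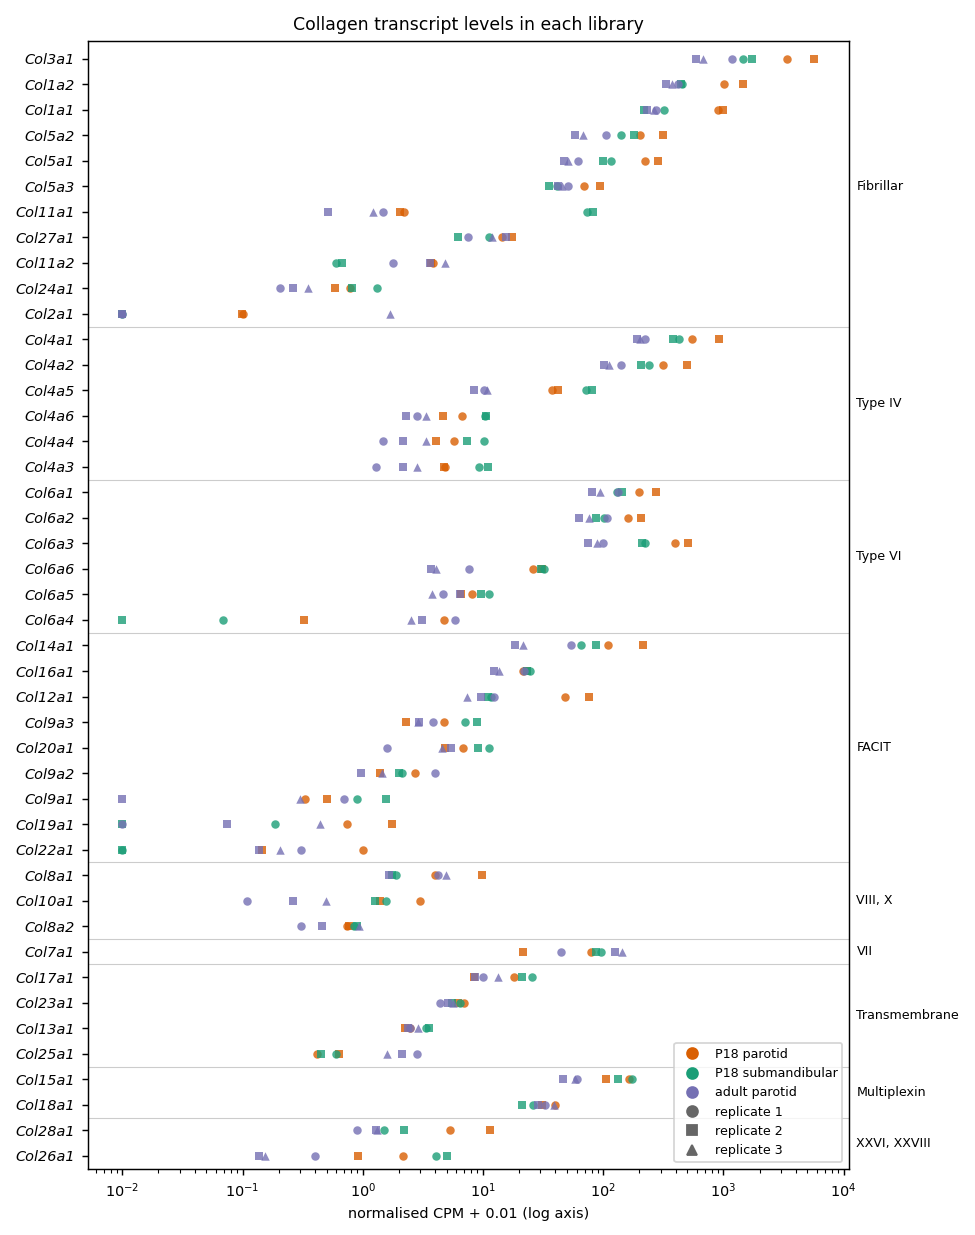
Normalised CPM plus 0.01 of each of the 44 collagens on a log axis, with 1 point per library, colour for group and shape for replicate. Members are grouped by structural class. Col3a1 reaches 5694 in P18 parotid replicate 2, and Col11a1 sits at 73.2 and 81.7 in the submandibular libraries and at or below 2.18 in all parotid libraries.

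Between the glands at P18, most members did not pass the test. The type I chains, a pair of type V chains and Col12a1, which coats type I fibrils, were lower in submandibular gland, and Col11a1, a minor fibrillar chain best known from cartilage, was 36.8-fold higher. Of 42 members tested, 2 rose and 10 fell in submandibular gland against P18 parotid at an adjusted p below 0.05, and 30 did not pass. Over all 15129 genes tested, 24.4% passed in either direction, 10.2% higher and 14.2% lower, so the count of calls is near the share among all genes. The median log2 difference was -0.35 for collagens and -0.07 for all genes. Without the composition factors, 1 collagen was higher and 20 lower, the collagen median was -0.96 and the all-gene median was itself shifted to -0.67. On the TPM scale, limma called 1 higher and 22 lower, and the all-gene median was again shifted, to -0.83.

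The number of calls between the glands depended on single libraries. With either submandibular library left out, so that the remaining one was assumed to vary like the other groups, 1 collagen passed, Col11a1. Without P18 parotid replicate 1, 21 passed. Without P18 parotid replicate 2, the library that stood apart, 12 passed. Of the 12 calls, Col11a1 held in all 7 such fits, 9 others held in the 5 fits that kept both submandibular libraries, Col6a2 held in 2 and Col6a4 in 1. None of the 12 changed direction in these fits.

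From P18 to the adult, collagen RNA in the parotid fell broadly. The main fibrillar chains, 5 of the 6 type IV chains, 4 type VI chains and the fibril-coating Col12a1 and Col14a1 were lower in the adult, by 1.78-fold (Col5a3) to 6.40-fold (Col12a1). Of 42 members tested, 21 fell and 1, Col25a1, rose. Over all genes, 25.9% passed in either direction, 10.7% higher and 15.1% lower. The median log2 difference was -1.10 for collagens and -0.01 for all genes. Without the composition factors, the medians were -2.33 for collagens and -1.24 for all genes, and 37 collagens were lower. With adult replicate 2 left out, 12 members passed, all lower. Those 12 passed whichever library was left out, and they comprised Col1a1, Col1a2, Col3a1, Col5a1, Col5a2, Col4a1, Col4a2, Col4a5, Col6a3, Col6a6, Col12a1 and Col28a1. The calls of Col10a1, Col15a1 and Col25a1 were lost without adult replicate 2, and those of Col14a1 and Col26a1 without adult replicate 2 or 3. The comparison shares its P18 parotid libraries with the comparison of the glands, so a high or low value in them moves both.

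**Figure D3:**
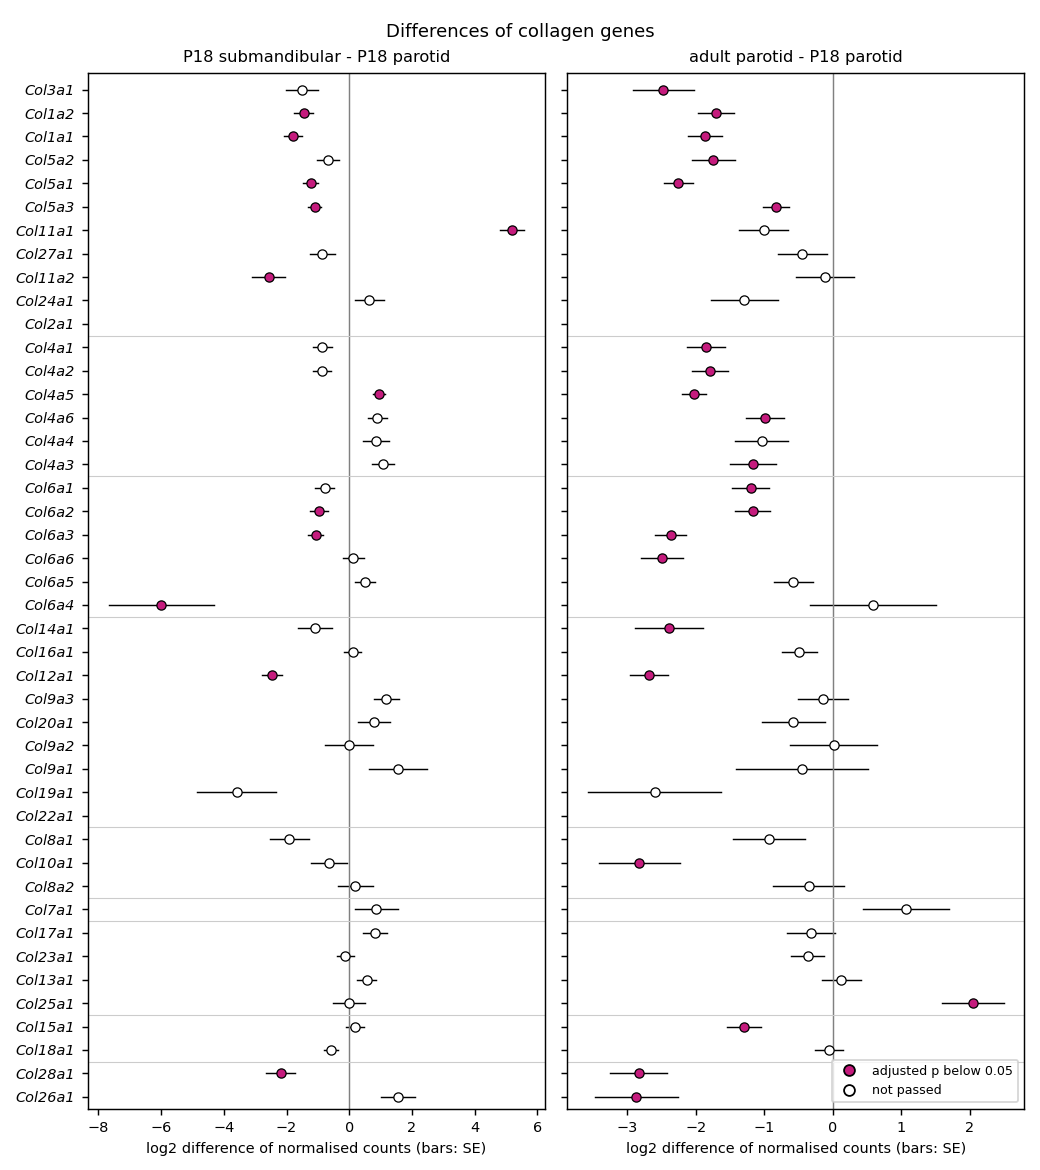
Log2 differences of the tested collagens from edgeR, submandibular minus parotid at P18 on the left and adult minus P18 parotid on the right, with standard errors as bars. Filled points passed an adjusted p of 0.05. Most filled points lie left of 0, and Col11a1 at 5.20 on the left and Col25a1 at 2.04 on the right lie far to the other side.

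Set against adult parotid in the same fit, P18 submandibular gland had 19 collagens higher and 3 lower, where 39.2% of all genes passed, 19.4% higher and 19.8% lower. In that comparison gland and age cannot be told apart. The median log2 difference was 0.95 for collagens and -0.02 for all genes. On the TPM scale, limma called 29 higher and none lower, but the all-gene median was itself 0.75 there. At an unadjusted p of 0.05 edgeR counted 4 lower, and DESeq2 called 3 lower. Without submandibular replicate 1 the count of 22 went to 8, without submandibular replicate 2 to 9, and without adult replicate 2 to 14.

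Among the fibrillar chains, 5 of 10 tested fell and 1 rose in submandibular gland, with a median log2 difference of -1.17. In the adult parotid 6 of 10 fell, with a median of -1.50. None of the 10 rose in the adult by edgeR, also at an unadjusted p of 0.05, or by DESeq2. Limma on TPM called none of 9 higher, but the all-gene median was itself -1.54 on that scale, so this adds little.

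Type I collagen separated P18 parotid from both other groups. Col1a1 stood at 898 and 986 normalised CPM in the P18 parotid libraries, 323 and 218 in submandibular gland and 276, 234 and 267 in adult parotid. The P18 parotid libraries were high, and the other 5 libraries overlapped. It was 3.48-fold lower in submandibular gland (log2 difference -1.80 ± 0.29, SE, adjusted p = 0.00782) and 3.64-fold lower in adult parotid (-1.86 ± 0.25, adjusted p = 0.00463). Its partner chain Col1a2 was at 1011 and 1443, at 450.1 and 444, and at 419.8, 336 and 377 normalised CPM in the same order. Its P18 parotid libraries were high, and submandibular gland lay just above adult parotid without overlap. It had a log2 difference of -1.46 ± 0.30 (adjusted p = 0.0155) between the glands and -1.70 ± 0.26 (adjusted p = 0.00673) with age.

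Type III collagen had the highest levels and the widest spread. Col3a1 stood at 3397 and 5694 normalised CPM in the P18 parotid libraries, 1457 and 1737 in submandibular gland and 1171, 596 and 682 in adult parotid. The groups did not overlap, but replicates within each parotid group differed by more than those of Col1a1. The fall with age passed (log2 difference -2.48 ± 0.45, adjusted p = 0.0101). The difference between the glands, -1.51 ± 0.50, did not (adjusted p = 0.0651). Without P18 parotid replicate 1 it was -1.79 with an adjusted p of 0.0194, and by DESeq2 -1.50 with an adjusted p of 0.0017.

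Type V collagen sits inside type I fibrils and sets where they start and how thick they grow. Col5a1 was at 222 and 285 normalised CPM in the P18 parotid libraries, 116 and 101 in submandibular gland and 61.3, 46.9 and 51.3 in adult parotid. The 3 groups were separate, with P18 parotid highest and adult lowest. Its log2 differences were -1.23 ± 0.23 between the glands (adjusted p = 0.0120) and -2.25 ± 0.21 with age (adjusted p = 0.00143). Col5a2 stood at 203 and 315, at 142 and 179, and at 106, 58.0 and 68.4 normalised CPM. It fell with age (-1.75 ± 0.32, adjusted p = 0.0102), while its difference of -0.69 ± 0.35 between the glands did not pass. Col5a3, the type V chain of narrower distribution, was at 69.7 and 94.7, at 41.0 and 35.6, and at 50.7, 42.2 and 45.5 normalised CPM. It was lower in submandibular gland than in P18 parotid (log2 difference -1.10 ± 0.21, adjusted p = 0.0132), and it fell with age (-0.83 ± 0.19, adjusted p = 0.0202). The age call of Col5a3 held in 2 of the 7 fits that left out a library, and its adjusted p reached 0.0922 over all alternatives.

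Type XI collagen is a close relative of type V that seeds thin fibrils in cartilage, and its chains can assemble with type V chains. Col11a1 stood at 2.18 and 2.02 normalised CPM in the P18 parotid libraries, at 73.2 and 81.7 in submandibular gland and at 1.47, 0.509 and 1.21 in adult parotid. The submandibular libraries were far above all parotid libraries of either age. The log2 difference between the glands at P18 was 5.20 ± 0.38 (adjusted p = 0.00175), and against adult parotid it was 6.21 ± 0.35 (adjusted p = 0.000196). Over 18 alternatives the adjusted p between the glands stayed at or below 0.0272. In TPM the gene had 16.8 and 17.9 in submandibular gland, near Col5a1 at 23.0 and 19.0, so that the TPM ratio of Col11a1 to Col5a1 was 0.730 and 0.939 there and 0.00817 to 0.0277 in the parotid libraries.

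Col11a2, the partner chain of type XI, went the other way. It stood at 3.81 and 3.67 normalised CPM in the P18 parotid libraries, 0.592 and 0.659 in submandibular gland and 1.76, 3.63 and 4.83 in adult parotid. Submandibular gland was lowest and the parotid groups overlapped. The log2 difference between the glands was -2.57 ± 0.53 (adjusted p = 0.0155). Col2a1, the third chain of cartilage type XI and the main cartilage fibre, had no count in either submandibular library, which leaves up to 0.0982 normalised CPM over the group. Of the cartilage and bone markers, Acan, Matn1 and Ibsp were also at 0 in submandibular gland. The marker list summed to 30.4 and 25.3 normalised CPM there, 24.3 and 6.68 in P18 parotid and 16.8 to 29.9 in adult parotid, which overlapped submandibular gland. Most of each submandibular sum was Runx2, at 23.9 and 16.8 there and 17.3 and 3.45 in P18 parotid. A single one of the list's 4 tested members, Lect1, which encodes a cartilage matrix protein, rose in submandibular gland (log2 difference 3.44 ± 1.04, adjusted p = 0.0493). It stood at 3.02 and 4.98 normalised CPM against 0.136 and 0.582.

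The sequences just upstream of the chain partners Col11a1 and Col11a2 are shown because these genes moved in opposite directions between the glands. They are taken from RefSeq on assembly GRCm38.p6, a later build than the mm9 used for the counts, and run 5′ to 3′ on each gene's strand. Capitals mark matches on either strand to the letters CCAAT (the core of the CCAAT box), to GGGCGG (the core of the GC box) and to TATAAA (the core of the TATA box), none of which overlap here, written as the complement where they lie on the opposite strand. The Col11a1 window is chr3:114030290-114030539 on the plus strand, and the Col11a2 window is chr17:34038888-34039137 on the plus strand.
Col11a1: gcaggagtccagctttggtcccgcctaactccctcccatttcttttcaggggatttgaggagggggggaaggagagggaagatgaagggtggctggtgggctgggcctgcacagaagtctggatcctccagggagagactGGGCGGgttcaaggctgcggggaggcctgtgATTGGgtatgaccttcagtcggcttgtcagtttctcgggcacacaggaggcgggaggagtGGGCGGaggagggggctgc
Col11a2: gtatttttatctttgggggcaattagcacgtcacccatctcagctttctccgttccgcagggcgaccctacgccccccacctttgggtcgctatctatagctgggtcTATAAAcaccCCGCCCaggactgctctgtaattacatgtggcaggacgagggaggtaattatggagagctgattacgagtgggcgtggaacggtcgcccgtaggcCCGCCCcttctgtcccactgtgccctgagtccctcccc
Col11a1 had GGGCGG at 110 and 19 bases before the start site and CCAAT on the opposite strand at 79. Col11a2 had GGGCGG on the opposite strand at 133 and 38 bases and TATAAA at 143. Over 32851 promoter windows of 250 bases in the same RefSeq table, 33.8% held CCAAT, 32.7% held GGGCGG and 12.4% held TATAAA. Of 38 windows that belong to 35 collagen members, 13 held CCAAT, 22 held GGGCGG and 5 held TATAAA. A match describes the letters and is not evidence of a bound factor.

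The remaining fibrillar chains were low. Col27a1, a fibrillar chain known from cartilage, stood at 15.9 ± 1.96, 8.73 ± 3.64 and 11.6 ± 4.11 normalised CPM (mean ± SD in P18 parotid, submandibular gland and adult parotid), and Col24a1 at 0.677 ± 0.134, 1.05 ± 0.351 and 0.263 ± 0.0714. Neither passed in the comparisons with P18 parotid.

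Of the 6 type IV chains, none fell and 1, Col4a5, rose in submandibular gland, with a median log2 difference of 0.87 on normalised counts. At an unadjusted p of 0.05 edgeR counted 3 higher and 2 lower, and DESeq2 called 3 higher and 2 lower. Limma on TPM, where the all-gene median was -0.83, called 2 lower and none higher. In the adult parotid 5 of the 6 fell, with a median of -1.48. All 6 were higher in submandibular gland than in adult parotid, by 1.90-fold to 7.76-fold.

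The common chains and the restricted chains of type IV followed different orders. Col4a1 stood at 546 and 926 normalised CPM in the P18 parotid libraries, 425 and 384 in submandibular gland and 221, 191 and 202 in adult parotid. Col4a2 ran in parallel, at 313 and 500.0, at 240.0 and 207, and at 139.5, 101 and 112. P18 parotid was highest and adult lowest for both, without overlap. Their falls with age were -1.85 ± 0.27 and -1.79 ± 0.27 on the log2 scale (adjusted p = 0.00599 for each), and their differences between the glands, -0.86 ± 0.31 and -0.86 ± 0.30, did not pass. Summed mural cell markers, from the cells that wrap small vessels, ran from 252 to 510.2 normalised CPM in the P18 parotid libraries, 114 to 135 in submandibular gland and 88.0 to 123 in adult parotid. Endothelial markers summed to 387 to 812, 124 to 139 and 246 to 301. Vessel walls are rich in Col4a1 and Col4a2, and the part of these cells in the difference was not tested.

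Col4a5, a chain that combines with Col4a3 and Col4a4 in kidney and with Col4a6 around smooth muscle and in skin, had its highest normalised counts in submandibular gland. It stood at 37.4 and 42.3 normalised CPM in the P18 parotid libraries, 71.9 and 80.5 in submandibular gland and 10.2, 8.40 and 10.9 in adult parotid. The 3 groups were well apart. The difference between the glands was 0.93 ± 0.19 on the log2 scale (adjusted p = 0.0156) and the fall with age -2.02 ± 0.18 (adjusted p = 0.00133). The first of these rested on the scaling. Without composition factors it was 0.33 (adjusted p = 0.186), and in TPM the gene stood at 18.6 and 19.5 in P18 parotid and at 18.5 and 19.7 in submandibular gland. Within the type IV chains, where scaling plays no part, the TPM ratio of Col4a5 to Col4a1 was 0.173 and 0.213 in submandibular gland and 0.0449 to 0.0699 in the parotid libraries. Without submandibular replicate 1 or replicate 2 the adjusted p was 0.0764 or 0.125, and with the 2 glands fitted alone it was 0.0573.

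The other restricted chains showed the same order at lower levels. Col4a6 stood at 6.63 and 4.61 normalised CPM in the P18 parotid libraries, 10.4 and 10.5 in submandibular gland and 2.84, 2.29 and 3.33 in adult parotid. Col4a3 stood at 4.81 and 4.70, at 9.23 and 10.9, and at 1.27, 2.16 and 2.80, and Col4a4 at 5.76 and 4.03, at 10.2 and 7.40, and at 1.47, 2.16 and 3.38. All 3 were highest in submandibular gland and lowest in the adult, without overlap, and none passed between the glands (log2 differences 0.85 to 1.08), and on the TPM scale Col4a4 and Col4a6 lay slightly below P18 parotid. Col4a3 and Col4a6 fell with age at adjusted p of 0.0410 and 0.0384, but their calls held in none and 1 of the 7 fits that left out a library. Against adult parotid, Col4a3, Col4a4 and Col4a6 were 4.73-fold, 3.70-fold and 3.69-fold higher in submandibular gland. Basal and myoepithelial markers, from the contractile cells that sit on the epithelial basement membrane, summed to 514 and 534 normalised CPM in submandibular gland. Their sums were 262 and 265 in P18 parotid and 240.0 to 257 in adult parotid. The similar parotid sums hide opposite moves with age. Of 8 markers, 3 (Krt5, Krt14 and Krt17) were higher in the adult and 1, Myh11, was lower. The all-gene shares there were 10.7% higher and 15.1% lower. The part of these cells was not tested.

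**Figure D4:**
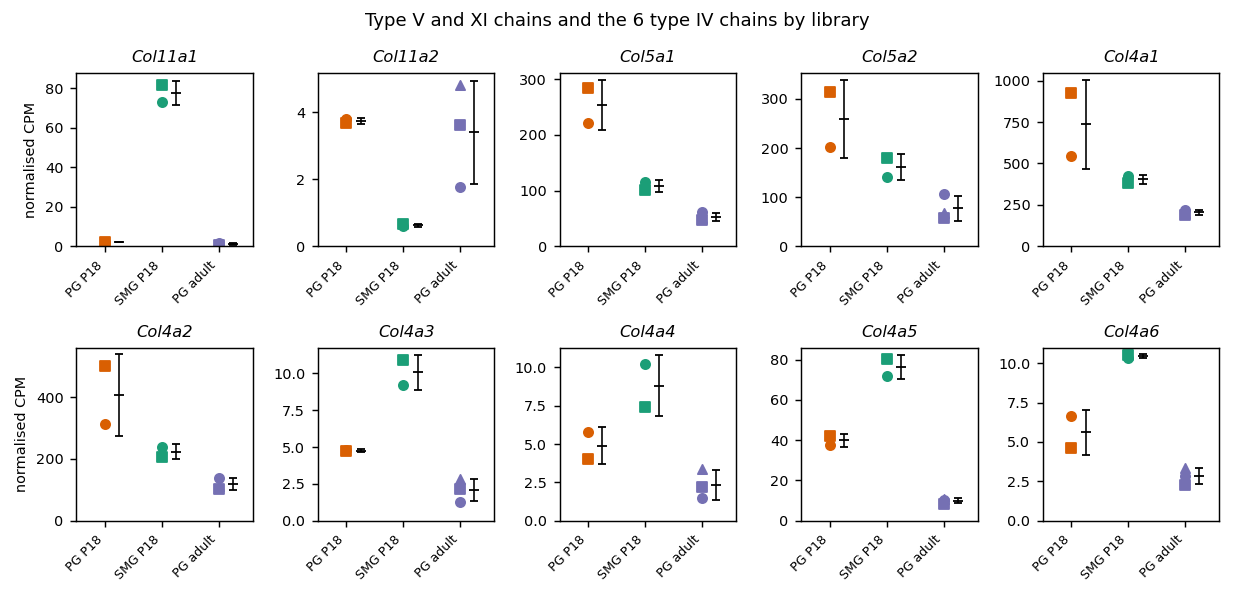
Normalised CPM per library of Col11a1, Col11a2, Col5a1, Col5a2 and the 6 type IV chains in P18 parotid (PG P18), P18 submandibular gland (SMG P18) and adult parotid (PG adult). Points are libraries, and the horizontal marks with bars beside them are mean ± SD. Col11a1 and Col11a2 lie on opposite sides, and Col4a1 and Col4a2 peak in P18 parotid while Col4a3 to Col4a6 peak in submandibular gland on this scale.

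The type IV genes lie in head-to-head pairs, and the region between Col4a6 and Col4a5 is shown because these neighbours held the same order over the groups. On GRCm38.p6 their start sites are 1343 bases apart on chromosome X. The Col4a5 stretch is chrX:141475169-141475384 on the plus strand and ends 35 bases before its start site, since bases of annotated exons were left out. The Col4a6 stretch is chrX:141474077-141474326 on the minus strand. In these sequences capitals mark the same motifs as above.
Col4a5: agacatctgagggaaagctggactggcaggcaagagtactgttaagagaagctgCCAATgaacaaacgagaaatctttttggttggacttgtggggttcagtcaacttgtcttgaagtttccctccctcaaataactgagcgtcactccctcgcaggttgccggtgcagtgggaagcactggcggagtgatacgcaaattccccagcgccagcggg
Col4a6: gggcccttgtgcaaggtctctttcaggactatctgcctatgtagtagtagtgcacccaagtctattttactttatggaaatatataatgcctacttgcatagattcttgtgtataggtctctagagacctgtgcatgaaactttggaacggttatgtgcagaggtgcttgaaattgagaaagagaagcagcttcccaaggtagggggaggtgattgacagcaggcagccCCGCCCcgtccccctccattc
Col4a5 had CCAAT at 196 bases before its start site, and Col4a6 had GGGCGG on the opposite strand at 21. Col4a1 and Col4a2 are closer still. In the GENCODE annotation of the same assembly their first exons, on opposite strands, overlap by 22 bases at chr8:11312805-11312826, given here on the plus strand because reads from this stretch cannot be assigned to either gene if counting ignored strand. This stretch was not marked for motifs.
Col4a2 and Col4a1 overlap: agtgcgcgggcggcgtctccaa

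Type VI collagen forms beaded filaments that tie cells to the surrounding matrix. Of 6 chains tested, 3 fell in submandibular gland, with a median log2 difference of -0.88. By edgeR, also at an unadjusted p of 0.05, and by DESeq2 none rose. Limma on TPM called none of 5 higher, but the all-gene median was itself -0.83 on that scale. In the adult 4 of 6 fell, with a median of -1.18. The chains that make the common molecule were Col6a1, Col6a2 and Col6a3. Col6a3 stood at 399 and 509 normalised CPM in the P18 parotid libraries, 224 and 209 in submandibular gland and 101, 74.3 and 89.3 in adult parotid. The groups were separate in the order P18 parotid, submandibular gland, adult parotid. The log2 differences were -1.07 ± 0.25 between the glands (adjusted p = 0.0215) and -2.37 ± 0.22 with age (adjusted p = 0.00156).

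Col6a1 and Col6a2 differed from Col6a3 in that adult parotid overlapped submandibular gland. Col6a1 stood at 197 and 276, at 131 and 144, and at 134, 80.2 and 94.8 normalised CPM. Col6a2 stood at 162 and 207, at 101 and 87.4, and at 108, 63.2 and 75.6. Both were highest in P18 parotid. They fell with age by 1.2 ± 0.27 and 1.17 ± 0.26 on the log2 scale (adjusted p = 0.0191 and 0.0186). Neither age call held without adult replicate 2 or without adult replicate 3, and that of Col6a1 was also lost without P18 parotid replicate 2 or submandibular replicate 1 (adjusted p up to 0.0756 for Col6a1 and 0.0717 for Col6a2). Between the glands Col6a2 passed narrowly (-0.97 ± 0.29, adjusted p = 0.0471), and its adjusted p was 0.115 without P18 parotid replicate 2. Col6a1 did not pass there (-0.78 ± 0.30).

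Col6a4, Col6a5 and Col6a6 are chains that can take the place of Col6a3. Col6a6 stood at 26 and 30.8 normalised CPM in the P18 parotid libraries, 32.1 and 30.3 in submandibular gland and 7.64, 3.69 and 4.05 in adult parotid. The glands overlapped at P18 and the adult was low (log2 difference with age -2.49 ± 0.31, adjusted p = 0.00352). Col6a5 stood at 8.17 and 6.54, at 11.2 and 9.67, and at 4.6, 6.43 and 3.76, and passed against neither P18 parotid comparison. Col6a4 was near 0 in submandibular gland, with 1 count in the 2 libraries together against 111 in P18 parotid. That makes a ratio of 76.5 (95% interval 13.4 to 3047, counting error only). The P18 parotid libraries themselves were far apart, at 4.72 and 0.314 normalised CPM, and the adult ones were at 5.88, 3.12 and 2.51. The call between the glands (adjusted p = 0.0400) held in only 1 of the 7 fits that left out a library.

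Collagens that coat fibrils (FACIT) had 1 of 8 tested members lower in submandibular gland and 2 lower in the adult, with medians of 0.05 and -0.53. None rose by edgeR in either comparison. DESeq2 called 1 higher between the glands and none with age, and edgeR at an unadjusted p of 0.05 counted the same. Limma on TPM called none of 6 higher, but the all-gene medians on that scale were -0.83 between the glands and -1.54 with age. Col12a1, which binds type I fibrils in dense tissue and under tension, stood at 47.7 and 76.3 normalised CPM in the P18 parotid libraries, 11.7 and 11 in submandibular gland and 12.2, 9.67 and 7.34 in adult parotid. P18 parotid was high and the other groups overlapped. It was 5.46-fold lower in submandibular gland (log2 difference -2.45 ± 0.32, adjusted p = 0.00488) and 6.40-fold lower in the adult (-2.68 ± 0.28, adjusted p = 0.00220). Col14a1, a relative of Col12a1 on the same fibrils, stood at 109.8 and 216, at 65.6 and 86.6, and at 53.6, 18.5 and 21.4. It fell with age (-2.39 ± 0.50, adjusted p = 0.0154), with P18 parotid replicate 2 and adult replicate 1 high in their groups. Its difference between the glands, -1.10 ± 0.55, did not pass.

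The rest of this class passed in neither comparison with P18 parotid. Col16a1, found near fibrils and basement membranes, stood at 22.3 ± 1.29, 24.0 ± 1.08 and 16.0 ± 5.19 normalised CPM in the P18 parotid libraries, submandibular gland and adult parotid. Col9a1, Col9a2 and Col9a3, which form the type IX collagen of cartilage, had means between 0.325 and 7.99. Against adult parotid, Col9a3 was 2.50-fold and Col20a1 2.58-fold higher in submandibular gland. Col19a1 had 3 counts in submandibular gland against 55 in P18 parotid, a ratio of 12.6 (95% interval 4.10 to 63.1). Col22a1, known from muscle-tendon junctions, had no count in submandibular gland and 25 in P18 parotid, so that it was at least 5.74-fold lower at a floor of 3 counts over the group. That bound rests on P18 parotid replicate 1, which held 22 of the counts against 3 in replicate 2. The adult libraries held 3, 2 and 4. Skeletal muscle markers summed to 3.02 and 49.4 normalised CPM in submandibular gland against 1269 and 6159 in P18 parotid, and 575 to 5052 in adult parotid. Any link of Col22a1 to muscle was not tested.

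The collagens of the epithelial border passed in neither comparison with P18 parotid. Col7a1, which forms the anchoring fibrils below stratified epithelium, stood at 78.9 and 21.5 normalised CPM in the P18 parotid libraries, 95.8 and 87.6 in submandibular gland and 44.8, 125 and 145 in adult parotid. Libraries of P18 and adult parotid overlapped, and it passed in no comparison. Col17a1, a transmembrane collagen of the hemidesmosomes that hold basal cells to the basement membrane, stood at 18.2 and 8.38, at 25.6 and 21.2, and at 10.1, 8.52 and 13.3. It was 2.19-fold higher in submandibular gland than in adult parotid (adjusted p = 0.0363). In both genes P18 parotid replicate 2 was the low library of its group. It lay 1.88 (Col7a1) and 1.12 (Col17a1) log2 units below replicate 1, and its epithelial markers were lower as well, as given above.

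Within P18 parotid, members split between the replicates. Of the 44 collagens, 23 were higher in replicate 2, with a median log2 difference between the replicates of 0.09. Col8a1 was higher there by 1.29, Col14a1 by 0.97, Col4a1 by 0.76 and Col3a1 by 0.75 on the log2 scale. Col15a1 fell by 0.65, Col26a1 by 1.25 and Col6a4 by 3.91 in replicate 2. With P18 parotid replicate 2 and adult replicate 1 both left out, 20 collagens passed between the glands, 5 higher and 15 lower, and all 12 of the calls made with every library were among them. With age 28 passed, 2 higher and 26 lower, and all 22 calls were among them.

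The multiplexins, which end in fragments known to restrain blood vessel growth, were tested as Col15a1 and Col18a1. Col15a1, of the outer basement membrane zone, stood at 165 and 105 normalised CPM in the P18 parotid libraries, 172 and 133 in submandibular gland and 60.5, 46.5 and 57.8 in adult parotid. The glands overlapped at P18 and the adult was low (log2 difference with age -1.30 ± 0.25, adjusted p = 0.0123). Col18a1, the source of endostatin, stood at 39.4 and 30.9, at 25.9 and 21.3, and at 33.1, 28.8 and 39.2. It passed in no comparison, and its share of collagen TPM was 0.365% ± 0.157, 0.537% ± 0.0799 and 1.30% ± 0.271 in the same order.

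Of the remaining classes, Col25a1 was the 1 member higher in the adult. This transmembrane collagen, known from neurons and the innervation of muscle, stood at 0.409 and 0.627 normalised CPM in the P18 parotid libraries, 0.592 and 0.439 in submandibular gland and 2.84, 2.1 and 1.59 in adult parotid. The adult libraries lay above all others, though at low counts. The log2 difference with age was 2.04 ± 0.45 (adjusted p = 0.0190). With plain library sizes it was 0.81 (adjusted p = 0.128), and on the unfiltered TPM scale 0.028 (adjusted p = 0.694). The other transmembrane chains, Col13a1 and Col23a1, stood at 2.35 ± 0.149 and 6.54 ± 0.506 normalised CPM in the P18 parotid libraries, and passed in no comparison.

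Col28a1, known in mouse from Schwann cell basement membranes of peripheral nerve, and Col26a1, of the remaining class, both fell with age. Col28a1 stood at 5.31 and 11.4 normalised CPM in the P18 parotid libraries, 1.48 and 2.2 in submandibular gland and 0.881, 1.27 and 1.30 in adult parotid. It was lower in both other groups, at log2 differences of -2.19 ± 0.47 (adjusted p = 0.0173) and -2.83 ± 0.42 (adjusted p = 0.00590). Schwann cell markers summed to 297 to 376 normalised CPM in the P18 parotid libraries, 204 in each submandibular library and 234 to 373 in adult parotid. Col26a1 stood at 2.13 and 0.896, at 4.02 and 4.98, and at 0.392, 0.127 and 0.145. Its difference between the glands, 1.57 ± 0.54, did not pass. It was highest in submandibular gland, 21.7-fold above adult parotid (adjusted p = 0.00206), and fell with age (-2.87 ± 0.61, adjusted p = 0.0161).

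Of the short network-forming chains, Col10a1, the collagen of maturing growth plate cartilage, fell with age from 3.0 and 1.39 to 0.0979, 0.254 and 0.483 normalised CPM (log2 difference -2.82 ± 0.59, adjusted p = 0.0158). Col8a1, a chain of vessel walls, and Col8a2 did not pass. Col8a1 stood at 6.88 ± 4.08, 1.83 ± 0.0964 and 3.60 ± 1.72 normalised CPM, with P18 parotid replicate 2 high.

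The genome places many members side by side. In the RefSeq annotation the 44 members lie on 15 chromosomes, and 15 of them form 8 neighbouring pairs, Col3a1 with Col5a2, Col4a1 with Col4a2, Col4a3 with Col4a4, Col4a5 with Col4a6, Col6a1 with Col6a2, Col6a4 with Col6a5, Col6a5 with Col6a6, and Col9a1 with Col19a1. Some pairs held the same order of groups, such as Col4a1 with Col4a2, and others did not. Col6a4 had 1 count in submandibular gland while its neighbour Col6a5 was at its highest there. Exons of 13 members overlap another annotated gene, for 10 of them on the opposite strand, and their counts are uncertain to that extent.

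Of 19 tested enzymes that fold and modify collagen chains, 2 rose and 1 fell in submandibular gland, and 1 rose and 3 fell in the adult. Over all genes, 10.2% were higher and 14.2% lower between the glands, and 10.7% and 15.1% with age. The enzyme counts are near or below these shares. Their median log2 differences were -0.55 and -0.29, against -0.07 and -0.01 for all genes. P4hb, the disulfide isomerase that also serves as a subunit of prolyl hydroxylase and folds many secreted proteins, stood at 720.2 and 347 normalised CPM in the P18 parotid libraries, 2561 and 2557 in submandibular gland and 823, 819 and 829 in adult parotid. Its submandibular libraries were far above the others, with a log2 difference between the glands of 2.26 ± 0.42 (adjusted p = 0.0116). Leprel4, an adaptor of collagen-modifying enzymes, stood at 9.40 and 11, at 19.2 and 18.5, and at 20.9, 17.6 and 18.7. It rose in both comparisons (0.89 ± 0.19 and 0.90 ± 0.18, adjusted p = 0.0186 and 0.0137), but on the TPM scale its differences were -0.038 and -0.93. Plod3, a lysyl hydroxylase, was lower in submandibular gland (-0.76 ± 0.21, adjusted p = 0.0367). Pxdn, the peroxidase that crosslinks type IV collagen, fell in the adult together with the type IV chains, from 119 and 173 to 49.6, 37.7 and 43.8 normalised CPM (-1.74 ± 0.22, adjusted p = 0.00352). Fkbp10, a collagen chaperone, was lower there as well (-0.80 ± 0.19, adjusted p = 0.0239). With single libraries left out, the calls of Plod3 and Fkbp10 held in 2 of 7 fits each, and both were lost without any of submandibular replicate 1 or 2, adult replicate 2 or 3, or P18 parotid replicate 2. The gland calls of P4hb and Leprel4 were lost without either submandibular library.

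Of 12 tested genes for trimming and crosslinking of fibrils, 4 fell in submandibular gland and 4 in the adult, with medians of -0.73 and -0.56. Among all genes, 14.2% were lower between the glands and 15.1% with age. None rose by edgeR, also at an unadjusted p of 0.05, or by DESeq2. Limma on TPM called none of 11 higher, but the all-gene medians on that scale were -0.83 between the glands and -1.54 with age. Lox, the enzyme that starts crosslinks between fibrillar collagens, stood at 17.8 and 34.5 normalised CPM in the P18 parotid libraries, 7.99 and 7.25 in submandibular gland and 5.29, 5.22 and 5.89 in adult parotid. P18 parotid was highest and adult parotid lowest, with log2 differences of -1.78 ± 0.33 (adjusted p = 0.0112) and -2.25 ± 0.29 (adjusted p = 0.00393). Its relative Loxl2 fell with age (-1.43 ± 0.20, adjusted p = 0.00491). Pcolce2, which speeds removal of the procollagen end piece, fell in submandibular gland (-2.84 ± 0.53, adjusted p = 0.0122) and the parotid groups overlapped, at 8.17 and 18.0 at P18 against 8.72, 12.5 and 12.0 in the adult. The gland calls of Lox and Pcolce2 were lost without either submandibular library.

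Among 9 collagen receptors tested, 2 fell in submandibular gland, and 4 fell and 1 rose in the adult, with medians of -0.78 and -0.90. The all-gene shares were 14.2% lower between the glands, and 15.1% lower and 10.7% higher with age. Ddr2, the discoidin domain receptor of stromal cells that binds fibrillar collagen, stood at 67.7 and 93.2 normalised CPM in the P18 parotid libraries, 32.4 and 34.9 in submandibular gland and 32.3, 37.5 and 40.9 in adult parotid. It fell in both comparisons (-1.26 ± 0.22, adjusted p = 0.00955, and -1.12 ± 0.19, adjusted p = 0.00904). Ddr1, its counterpart of epithelial cells, was higher in the adult, at 34.7 and 12.2 against 55.4, 72.3 and 77.5 (1.55 ± 0.42, adjusted p = 0.0345). That call held in 2 of 7 fits, those without a P18 parotid library, and it was lost without any other single library (adjusted p up to 0.0953). On the TPM scale the difference was -0.19. Of the integrin subunits that bind collagen, Itga11 fell in submandibular gland (-2.57 ± 0.43, adjusted p = 0.00886) and Itga1 in the adult (-2.47 ± 0.27, adjusted p = 0.00242). The gland calls of Ddr2 and Itga11 were lost without either submandibular library.

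Of 13 genes for collagen breakdown and its inhibitors, 2 fell in submandibular gland, and 2 rose and 1 fell in the adult, with medians of -0.49 and -0.10. The all-gene shares were 14.2% lower between the glands, and 10.7% higher and 15.1% lower with age. Timp4, a metalloproteinase inhibitor, stood at 9.40 and 26.1 normalised CPM in the P18 parotid libraries, 0.237 and 0.220 in submandibular gland and 7.83, 10.4 and 8.11 in adult parotid (between the glands -6.23 ± 0.64, adjusted p = 0.00311). The fat cell markers were also lowest in submandibular gland, where they summed to 29.8 and 33.6 against 2699 to 9237 and 2453 to 2911 in the parotid groups. So were the skeletal muscle markers, at 3.02 and 49.4 there, and the endothelial markers, at 139 and 124. Any link of Timp4 to these cells was not tested. Mmp9, a gelatinase, fell in submandibular gland (-2.05 ± 0.51, adjusted p = 0.0276) and rose in the adult (2.28 ± 0.41, adjusted p = 0.0102), at 2.27 and 1.39, at 0.237 and 0.659, and at 9.5, 9.61 and 7.63 normalised CPM. The fall was lost without P18 parotid replicate 1, either submandibular library or adult replicate 2 (adjusted p up to 0.161). The rise was not called on the TPM scale (0.26, adjusted p = 0.276), where the parotid groups overlapped at 2.33 and 1.33 at P18 against 2.21, 2.71 and 2.13 in the adult. Timp2 rose in the adult from 73.5 and 75.6 to 147, 149 and 150.0 (0.99 ± 0.16, adjusted p = 0.00711), but on the TPM scale its difference was -0.89. Mmp16, a membrane-bound metalloproteinase, was lower there (-2.59 ± 0.61, adjusted p = 0.0232), a call that held in 2 of 7 fits, those without P18 parotid replicate 2 or adult replicate 1.

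Markers of collagen-making cells did not all follow the collagens. Summed fibroblast markers ran from 502 to 810.3 normalised CPM in the P18 parotid libraries and 493 to 689.7 in submandibular gland. In adult parotid they ran from 675 to 841, so that the groups overlapped while summed collagen did not. The largest part of each sum was Dcn, at 250 and 403, at 285 and 427, and at 408, 574 and 587 in the same order. Over the 7 tested fibroblast markers the median log2 difference was -1.07 between the glands and 0.02 with age. Of 7 fibroblast markers tested, 3 fell in submandibular gland and 1, Pdgfra, fell in the adult. Among all genes, 10.2% were higher and 14.2% lower between the glands, and 10.7% and 15.1% with age. Tcf21 had no count in any library. Against P18 parotid, mural cell markers were lower in 5 of 6 in submandibular gland and in 6 of 6 in the adult. Endothelial markers were lower in 7 of 8 and 4 of 8 in the same order. Fat cell markers fell in submandibular gland against P18 parotid in 8 of 8, and epithelial markers rose there in 7 of 8. Set against adult parotid, submandibular gland had 19 collagens higher and 3 lower. In that comparison no mural marker passed, and 3 of 8 endothelial markers were lower and none higher. Epithelial markers were higher in 4 of 8 and basal and myoepithelial markers in 3 of 8, with none lower. Of the fibroblast markers 1, Pdgfra, was higher and 3 were lower. Fat cell markers were lower in 8 of 8 and skeletal muscle markers in 7 of 8. Of the Schwann cell markers 2 were higher and 4 lower. Among all genes, 19.4% were higher and 19.8% lower in that comparison. Which of these cells carried the collagen differences was not tested.

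**Figure D5:**
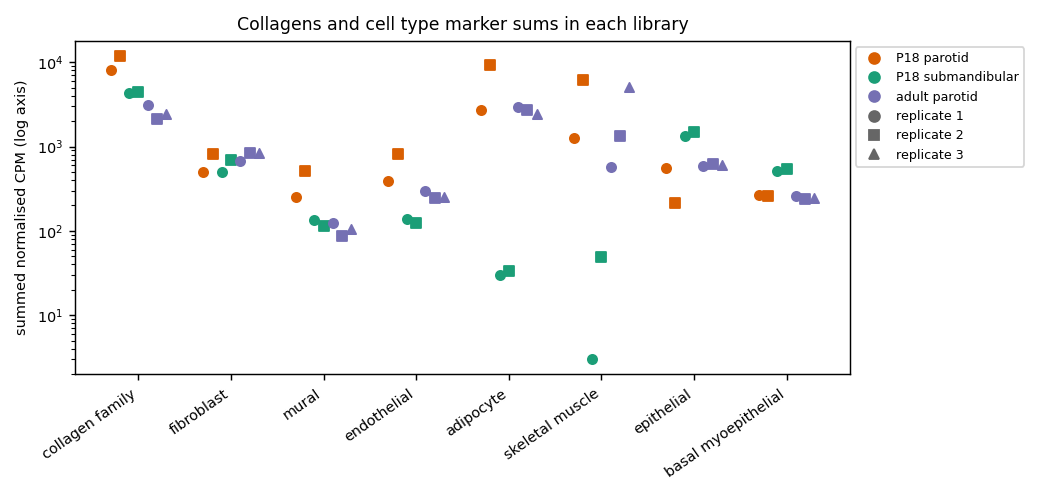
Summed normalised CPM of the collagen family and of marker lists in each library, on a log axis, with colour for group and shape for replicate. Collagen sums run from 2143 to 11878 and fall in the order P18 parotid, submandibular gland, adult parotid. Fibroblast marker sums lie between 493 and 841 in all libraries, while fat and muscle marker sums are lowest in submandibular gland.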

How the data were processed

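The authors deposited raw counts per gene symbol and TPM, per the file headers and the values. The submitters' processing notes list build mm9, featureCounts 1.5.1, TopHat2 2.1.1 with Bowtie2 2.2.6, and DESeq2 1.20.0. Strand and multi-mapping settings are not given in sources used here. Libraries were made from polyadenylated RNA with an Illumina TruSeq kit, per the labels' protocols. The counts table has 2 columns that match no sample label, not used here. Counts were fitted for all 7 libraries in 3 groups with edgeR 4.0.16 (R 4.3.3), after its filter (minimum count 10, total 15) and TMM scaling. The quasi-likelihood F test had 4 residual degrees of freedom, Benjamini-Hochberg adjustment ran over 15129 genes and the threshold was 0.05. Standard errors derive from the F statistic. Alternatives used limma 3.58.1 on log2(TPM + 1), log2(TPM + 0.1), DESeq2 1.42.0, other scalings and filters, and each library left out. The test was checked on simulated counts with the same spread for all genes and libraries. That check does not cover replicates that differ as much as those of P18 parotid.

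The collagens and gene lists were chosen with earlier results of these data known. Values in every library are given for the 10 most abundant members and up to 5 called members per direction in each comparison with P18 parotid. Of each pathway list, the 2 called genes per direction with the smallest adjusted p are named. Other genes named were chosen after their values were seen. Intervals are exact 95% Poisson intervals and, like floors of 3 counts, cover counting error only. No replicate pair agreed within sampling noise (chi-square per degree of freedom from 13.3 to 197), so no libraries were merged. Sequences come from RefSeq tables on GRCm38.p6. Promoter entries were found for 35 members, and all 44 matched the gene table. Exon overlaps come from GENCODE.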

Additional observations from a re-analysis of the deposited data

How the results depend on the processing

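Under 18 alternatives no called collagen changed sign. Of 1673 single-gene values under alternatives, 1361 kept direction and side of the threshold, 58 passed newly, 208 no longer passed and 46 changed sign. Between the glands at P18, where 12 collagens passed, 21 passed with plain library sizes, 19 with DESeq2, 4 with only these groups fitted, 20 without the 2 libraries that stood apart, 23 and 21 with limma on log2(TPM + 1) and log2(TPM + 0.1), and 24 without its filter. Leaving out 1 library gave 1 to 21. With age, where 22 passed, 37 passed with plain library sizes, 35 and 35 with limma on the TPM scales and 39 without its filter, and leaving out 1 library gave 12 to 22. For submandibular against adult parotid, where 22 passed, leaving out 1 library gave 8 to 26. With plain library sizes and in the limma fits the all-gene median was also shifted. It was -0.95 to -0.61 between the glands at P18 and -1.86 to -1.24 with age. The collagen share was 0.545%, 0.124% and 0.0375% of summed TPM in P18 parotid, P18 submandibular gland and adult parotid, and 1.07%, 0.571% and 0.367% of counts without the 50 most abundant genes. With single libraries left out it was 1.38% to 1.84%, 0.458% to 0.478% and 0.164% to 0.187%.

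The groups share replicate numbers, but only 2 of them occur in more than 1 group. Deviations of same-numbered libraries from their group means correlated at 0.239 at most, down to -0.0174. In a group of 2 libraries these deviations mirror each other, so the check cannot tell whether same-numbered libraries are paired. The main fit did not use the numbers. With the replicate block, 9 collagens passed between the glands, 11 with age and 15 between submandibular gland and adult parotid.

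The values that changed sign are log2 differences of genes whose main difference is small or rests on the scaling. Between the glands, Col15a1 was -0.44 with plain library sizes, -0.091 without P18 parotid replicate 2 (up to 0.58 with other single libraries left out), -0.090 without both libraries that stood apart, -0.72 and -0.73 with limma on the TPM scales and -0.72 without its filter. Col6a6 was -0.47 with plain library sizes and -0.71, -0.78 and -0.71 in the limma fits in that order. The limma fits gave -0.030, -0.021 and -0.030 for Col17a1, -0.054, -0.077 and -0.054 for Col4a4, -0.017, -0.015 and -0.017 for Col4a6 and -0.038, -0.040 and -0.038 for Leprel4. Col25a1 was -0.58 with plain library sizes, -0.010 without the 50 most abundant genes, -0.23 without P18 parotid replicate 1, -0.20 without submandibular replicate 1 (up to 0.36 with others left out), -0.0092 with the replicate block and -0.12 in the unfiltered limma fit. With age, Col11a2 was 0.18 without adult replicate 1 (down to -0.45 with others left out) and 0.19 without both libraries that stood apart, and Col17a1 was 0.40 without P18 parotid replicate 1 (down to -0.74 with others left out). Plain library sizes and the limma fits gave -0.19, -0.66, -0.72 and -0.66 for Col7a1, -0.34, -0.93, -1.0 and -0.93 for Leprel4 and -0.24, -0.89, -0.91 and -0.89 for Timp2. The limma fits gave -0.19, -0.19 and -0.19 for Ddr1. The cause was not tested.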

Other observations

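Col2a1, the main fibre chain of cartilage, had 35 counts in adult parotid replicate 3 and none in the other adult libraries. In that library it stood at 1.69 normalised CPM, and the cartilage and bone genes Acan (2.90), Comp (3.28) and Ibsp (0.434) were at their highest of all 7 libraries. Acan was at 0 in the other 2 adult libraries and at 0.272 and 0.314 in P18 parotid, and Ibsp had no count in any other library. Skeletal muscle markers were also highest there among the adult libraries, at 5052 normalised CPM. These genes were singled out after their values were seen, and no test was made.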
